A study of Caenorhabditis elegans with 22 samples.

Results

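GFP::Dam is the nuclear control of a DamID experiment, and its methylation pattern was compared here between cec-4 mutant and wild-type intestines of Caenorhabditis elegans L1 larvae. All GFP::Dam libraries of the series were taken, 11 of 22 libraries in all: 6 from the cec-4 strain GW1380 and 5 from the wild-type-genotype strain GW1378. The cec-4 group, which carries the ok3124 allele, has 3 libraries with control RNAi and 3 with mrg-1 RNAi. The wild-type group has 3 libraries with control RNAi and 2 with mrg-1 RNAi (numbers 2 and 3). The other 11 libraries carry Dam::EMR-1 in a second strain of each genotype (GW1379 is cec-4 and GW1377 is wild type), and they serve here only as a point of comparison. In all 4 strains the fusion is driven by the hsp-16.41 promoter with no heat shock, after recombination by a FLP enzyme under the elt-2 promoter, which limits the fusion to the intestine. The mothers were fed RNAi bacteria for 66 h at 20 °C, and their hatched offspring were grown for 2.5 h in liquid on Dam-negative bacteria. Each genotype is a single strain per fusion, so the cec-4 allele and any other difference between the strains cannot be told apart. All strains of 1 replicate number were grown side by side. With replicate number as a block the p-values measure the spread that remains between libraries within 3 such rounds of culture.

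DamID marks the DNA that a protein meets: Dam, a bacterial adenine methylase, methylates GATC sites near the protein it is fused to, and only fragments with methylated ends are amplified and sequenced. A freely diffusing GFP::Dam methylates wherever chromatin lets it in, so its map is read as a map of accessibility, and a study divides by it to correct the map of the tethered fusion. At the inner nuclear membrane sits CEC-4, whose chromodomain binds methylated lysine 9 of histone H3 and so tethers heterochromatin to the nuclear periphery. MRG-1 is a chromodomain protein of active chromatin, and EMR-1 is emerin, a protein of the nuclear envelope. The worm's autosomes carry most of their heterochromatin on the arms, the outer parts, and most of their broadly expressed genes in the centre. Reads in a bin are a share of a library, so a lower level in every intestinal cell and the same level in fewer cells cannot be told apart.

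The GFP::Dam libraries held 5016363 to 18553316 nuclear reads, and the median 10 kb bin held 202 to 518 reads. One 10 kb bin on chromosome I (15060001 to 15070000, build ce11), which holds 4 ribosomal RNA genes, took 7.06% to 31.3% of all reads in GFP::Dam libraries, against 0.626% to 1.84% in Dam::EMR-1 libraries. The 4 GFP::Dam libraries of number 2 had 7.06% to 10.2% there, and the 7 others 12.5% to 31.3%. Of the remaining reads, 53.4% and 53.8% fell in the top 10% of bins in cec-4 control RNAi libraries 1 and 3, against 52.8% in wild-type mrg-1 RNAi library 3 and 31.8% to 48.8% in the 8 others. The cec-4 control RNAi library 1 had no read in 3.31% of 10 kb bins, where the 10 other libraries had none in 0.598% to 1.27%. Levels of log2 CPM at 10 kb correlated more between genotypes of 1 number and RNAi condition (r of 0.865 to 0.981, median 0.961, 5 library pairs) than between numbers of 1 genotype and RNAi condition (0.802 to 0.943, median 0.907, 10 library pairs), as a description across bins that share depth and GATC content. Libraries of 1 number that differed in both genotype and RNAi condition correlated at 0.947 to 0.973 (median 0.969, 5 library pairs). Pairs of 1 number and RNAi condition were thus not always the closest libraries. The cec-4 control RNAi library 3 stood at 0.947 with wild-type mrg-1 RNAi library 3 and 0.892 with wild-type control RNAi library 3. The same values for number 2 were 0.971 and 0.981. Bins of intestinal genes had a high GFP::Dam level in both genotypes, 1.75 ± 0.52 log2 units above the median bin in cec-4 (SD, n = 6) and 1.54 ± 0.66 in wild type (SD, n = 5) over 28 bins. Bins of 15 neuronal genes stood at -0.299 ± 0.16 in cec-4 and -0.109 ± 0.22 in wild type on the same scale. Other lists also stood above the median bin. Bins of pharynx, germline, hypodermis and muscle markers stood at 0.913, 0.759, 0.664 and 0.582 in cec-4 and at 0.749, 0.716, 0.545 and 0.6 in wild type. Those of ribosomal protein and nuclear envelope genes stood at 1.79 and 1.7 in cec-4 and at 1.68 and 1.64 in wild type.

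The cec-4 gene itself (chromosome IV, 7576181 to 7577325) lies in 2 bins of 1 kb. The first (7576001 to 7577000, 820 bases of the gene) had 10, 49 and 76 reads in cec-4 control libraries 1 to 3 and 80, 53 and 96 in cec-4 mrg-1 RNAi libraries, against 66, 27 and 72 in wild-type control libraries and 27 and 23 in wild-type mrg-1 RNAi libraries. The second (7577001 to 7578000, 325 bases of the gene) had 9.54, 10.4 and 28.7 CPM (read counts scaled by TMM to a common library size) with control RNAi and 9.4, 9.08 and 20.2 with mrg-1 RNAi in cec-4, against 20.6, 20.1 and 57.3 with control RNAi and 17.9 and 23 with mrg-1 RNAi in wild type. Both bins held reads in every library, the groups overlapped in both, and the second was lower in cec-4 in 5 of 5 pairs of the same number and RNAi condition. Its log2 difference was -0.83 ± 0.27 (edgeR quasi-likelihood, unadjusted p = 0.0109, Benjamini-Hochberg adjusted p = 1), and that of the first 0.03 ± 0.47. The extent of the ok3124 lesion is not given in the sources used here, so these bins do not check the strain's label.

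Over both RNAi conditions, edgeR called no region of 10 or 100 kb for a difference in GFP::Dam level between cec-4 and wild type. At 10 kb, 0 of 9927 tested bins were called (0%), with replicate number and RNAi as blocks in edgeR's quasi-likelihood test at a Benjamini-Hochberg adjusted p under 0.05. The smallest adjusted p was 0.998, and 292 bins (2.94%) had an unadjusted p under 0.05, 55 higher in cec-4 and 237 lower. At 100 kb, 0 of 1004 were called (0%) and 7 had an unadjusted p under 0.05, 3 higher and 4 lower. DESeq2 on the same design called 2 bins lower at 10 kb and 0 at 100 kb, where 10 had an unadjusted p under 0.05. The median absolute log2 difference was 0.157 at 10 kb and 0.0659 at 100 kb. The 95% interval of the difference lay within 1 log2 unit of 0 in 7275 bins of 10 kb (73.3%) and in 995 bins of 100 kb (99.1%), and within 0.5 of 0 in 79.8% of 100 kb bins. At 100 kb a difference of more than 1 log2 unit thus lay outside the interval in 99.1% of tested bins. These intervals are of the difference fitted over both RNAi conditions, and do not bound the difference within a single condition or pair. The median half-width of the interval was 0.572 at 10 kb and 0.278 at 100 kb. For scale, the same fit called 0 bins for RNAi (0%; 130 with an unadjusted p under 0.05, and 1 called by DESeq2) and 4323 of 9927 bins for replicate number (43.5%).

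**Figure D1:**
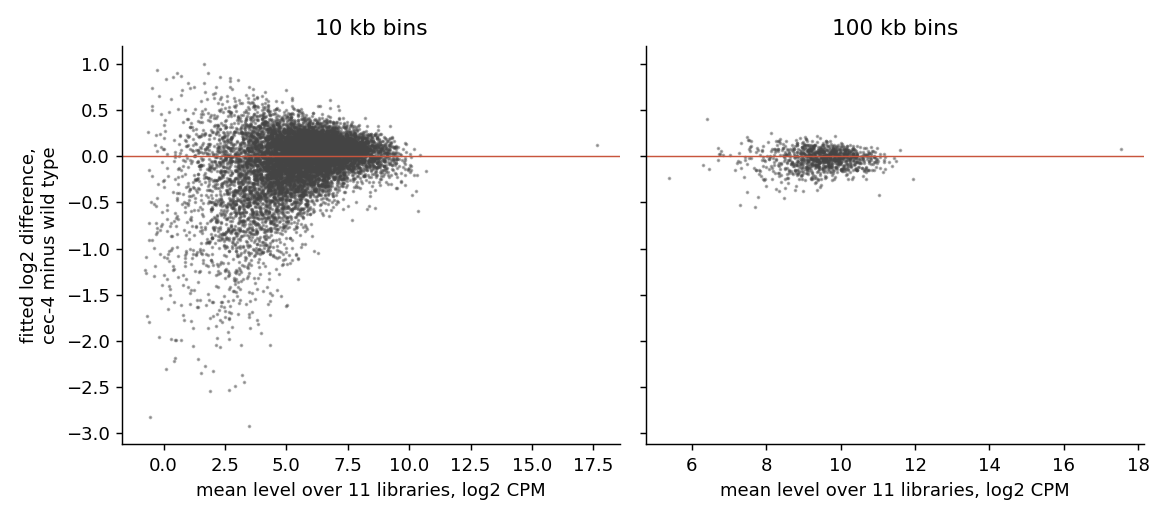
Fitted log2 difference in GFP::Dam level, cec-4 minus wild type, against the mean level over 11 libraries in log2 CPM, for 9927 bins of 10 kb (left) and 1004 bins of 100 kb (right), each point a bin. At 10 kb, 297 bins lie below -1 and 0 above 1, most of them at low level, and at 100 kb 0 lie outside that range.

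The fitted differences were lopsided at low level. Of the 10 kb bins, 297 were more than 1 log2 unit lower in cec-4 and 0 more than 1 higher, and with bins split by mean level into 5 groups of equal size the median difference was -0.24 in the lowest group and 0.05 in the highest. The tilt was seen in 2 of the 5 pairs. In control RNAi pairs 1 and 3 the medians of the lowest group were -0.73 and -0.69, and those of the highest group 0.28 and 0.64. In control RNAi pair 2 and mrg-1 RNAi pairs 2 and 3 the lowest group stood at -0.05, -0.02 and 0.08, and the highest at -0.12, -0.16 and -0.32. The share of 10 kb bins that differed by more than 1 log2 unit between the genotypes was 36.3% and 38.1% in control RNAi pairs 1 and 3, against 1.05%, 3.47% and 8.86% in the other 3 pairs. Libraries of 1 genotype and RNAi condition differed among themselves by median absolute log2 differences of 0.464 to 1, and the pairs of genotypes by 0.2 to 0.776. The first range is between replicate numbers and so includes differences between rounds of culture. The second is within a number, so the 2 ranges do not rank the genotype difference against the spread of replicates.

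The genotypes were then compared within each RNAi condition. In the 5 mrg-1 RNAi libraries 1658 of 9927 bins were called (16.7%), 834 higher in cec-4 (8.4%) and 824 lower (8.3%), with median log2 differences of 0.79 and -0.74 among those called (edgeR quasi-likelihood, replicate number as a block). In the 6 control RNAi libraries edgeR called 0 of 9894, with 539 at an unadjusted p under 0.05. The mrg-1 RNAi fit has 1 residual degree of freedom and rests on pairs 2 and 3 alone, since cec-4 library 1 has no partner and its own block takes it up. Control RNAi pair 2 comes from the same round as mrg-1 RNAi pair 2, and its libraries correlated with those at r = 0.99 in cec-4 and 0.991 in wild type. It is therefore no independent check of the calls. It had the same sign as the call in 786 of the 834 higher bins (94.2%) and 802 of the 824 lower bins (97.3%), against 44% and 56% of all tested bins with those signs. Control RNAi pairs 1 and 3 had the same sign in 3.36% and 4.32% of the higher bins and 9.34% and 11.4% of the lower ones. In those 2 pairs the medians of the bins called higher with mrg-1 RNAi were -1.72 and -1.13, and those of the bins called lower 1.1 and 1.06. Most of these bins thus separated the genotypes in opposite directions in different pairs.

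**Figure D2:**
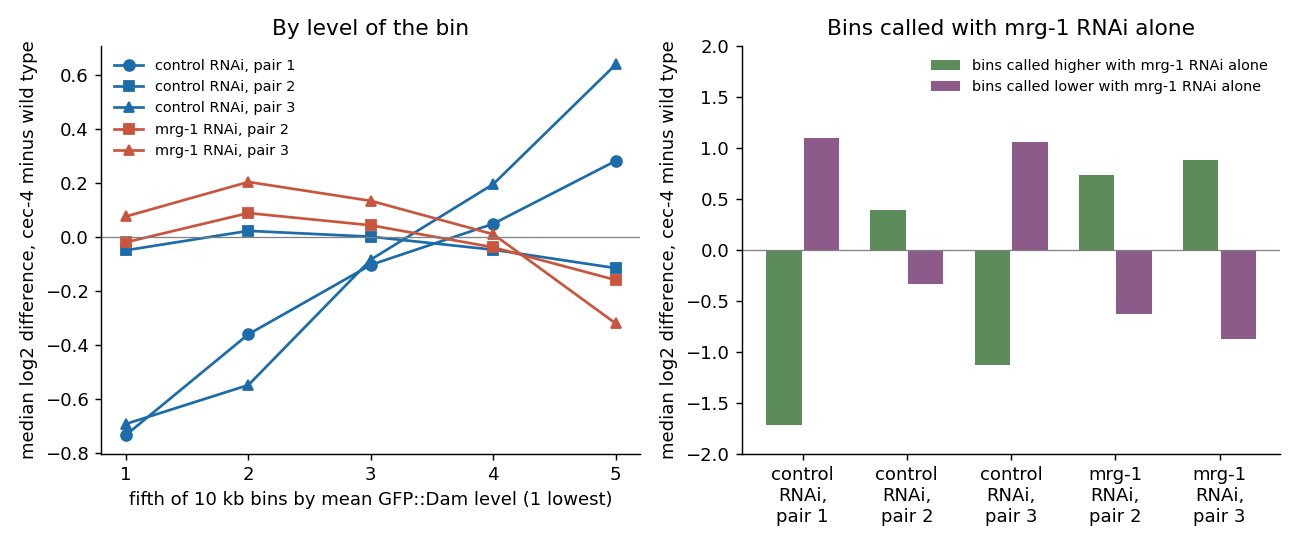
Median log2 difference (cec-4 minus wild type) per pair of libraries of the same number and RNAi condition, on the left in 5 groups of 10 kb bins of equal size ranked by mean GFP::Dam level, and on the right for the 834 bins called higher and the 824 called lower in the mrg-1 RNAi libraries alone. On the left, control RNAi pairs 1 and 3 climb with level (-0.73 to 0.28 and -0.69 to 0.64) and the other 3 pairs end below 0, and on the right the bars of control RNAi pairs 1 and 3 point opposite to those of the other 3 pairs.

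Each library measure given here ranked control RNAi pairs 1 and 3 apart from the other 3 pairs, some by sign and others only by size. The ribosomal RNA bin took 31.3% of reads in cec-4 against 25.6% in wild type in control RNAi pair 1, and 25.2% against 12.5% in pair 3. It took 7.06% in cec-4 against 7.4% in wild type in control RNAi pair 2, 7.75% against 10.2% in mrg-1 RNAi pair 2, and 20% against 22.3% in mrg-1 RNAi pair 3. The share of the other reads in the top 10% of bins differed by 4.54 and 10.7 percentage points (cec-4 minus wild type) in control RNAi pairs 1 and 3, and by -1.45, -2.72 and -9.53 points in control RNAi pair 2 and mrg-1 RNAi pairs 2 and 3, a measure that partly restates the bin differences. Median reads per 10 kb bin differed by -74 and 31 in control RNAi pairs 1 and 3, and by 86, 92 and 303 in the other 3 pairs. The share of empty 10 kb bins differed by 2.52 and 0.269 points, and by -0.00997, 0.0498 and -0.0698, in the same order. The part of library composition in the bin differences was not tested.

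By region, bins called with mrg-1 RNAi alone included 346 higher and 124 lower of 2733 in autosome centres (12.7% and 4.54%), and 336 higher and 594 lower of 5429 on autosome arms (6.19% and 10.9%). By level, 405 of the 824 lower bins and 99 of the 834 higher ones lay in the highest of the 5 groups. Collagen genes, which build the cuticle, had 4 bins higher and 25 lower of 130 (22.3% called, median log2 difference -0.30). Intestinal genes had 1 bin higher and 6 lower of 28 (25%, median -0.20), with the elt-2 bin among the bins called lower, and hypodermal genes had 0 higher and 4 lower of 15. Ribosomal protein genes had 0 higher and 5 lower of 62 (8.06%). Chemoreceptor genes, the largest family on the arms, had 47 higher and 53 lower of 829 (12.1%), and neuronal genes 1 higher and 0 lower of 15. Lists of other tissues where the fusion is not expressed had shares below and above that of intestinal genes. Pharynx had 1 higher and 1 lower of 7 bins (28.6%), muscle 0 and 3 of 14 (21.4%) and germline 0 and 2 of 14 (14.3%). The shares of hypodermal and neuronal genes, counted above, were 26.7% and 6.67%. Major sperm protein genes had 1 and 5 of 24 (25%). Proteasome genes leaned the other way, with 5 higher and 1 lower of 33 (18.2%). Histone genes had 0 and 3 of 21, and nuclear envelope and pore genes 1 and 3 of 16. Genes of histone H3 lysine 9 methylation, Polycomb and the MRG-1 pathway had 2 and 1 of 19. C-type lectin genes had 15 and 16 of 172, nuclear hormone receptor genes 16 and 12 of 200, and F-box with MATH and BTB genes 22 and 11 of 261. Small heat-shock protein genes had 0 and 0 of 7, and the 5 genes the strains and RNAi involve 0 and 1. These counts stand beside 16.7% of all bins called, 8.4% higher and 8.3% lower, and most called bins leaned the other way in control RNAi pairs 1 and 3.

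Of the bins called with mrg-1 RNAi alone, those with the largest differences were named, a choice made after the values were seen. The bin of nhr-258, a nuclear hormone receptor gene (chromosome IV, 8040001 to 8050000), had 48, 191 and 153 reads in cec-4 mrg-1 RNAi libraries 1 to 3, against 50 and 20 in wild-type mrg-1 RNAi libraries 2 and 3. Its log2 difference was 1.72 ± 0.35 (edgeR adjusted p = 9.72e-05). With control RNAi it had 0, 191 and 38 reads in cec-4 libraries 1 to 3, against 63, 79 and 131 in wild type, so that pair 2 was higher in cec-4 and pairs 1 and 3 were lower. The bin of clec-261, a C-type lectin gene (chromosome V, 20290001 to 20300000), had 26, 26 and 64 reads in cec-4 against 14 and 3 in wild type with mrg-1 RNAi, a log2 difference of 1.64 ± 0.51 (edgeR adjusted p = 0.014). Its control RNAi pairs 1 to 3 stood at -2.52, 0.85 and -0.77. A bin with no standard gene symbol on chromosome II (140001 to 150000) had 48, 70 and 105 reads in cec-4 against 19 and 12 in wild type, at 1.79 ± 0.42 (edgeR adjusted p = 0.000699), and its control RNAi pairs stood at -1.9, 1.22 and -1.5. The 3 lower ones, on chromosomes II (13800001 to 13810000) and IV (16560001 to 16570000 and 6650001 to 6660000), overlap no gene with a standard symbol and rest on 36 or fewer reads a library, at log2 differences of -3.62 ± 1.24, -2.71 ± 0.79 and -1.92 ± 0.60 with mrg-1 RNAi. The control RNAi pairs 1 to 3 stood at -1.57, 0.27 and -0.12 in the bin on II, at -2.09, -1.35 and -0.89 in the first bin on IV and at -2.78, -1.19 and -1.06 in the second. Both bins on IV were thus lower in cec-4 in 5 of 5 pairs, unlike most called bins.

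Whether the genotype difference itself depended on RNAi was tested with an interaction term. At 10 kb 0 of 9927 bins were called for it by edgeR (0%), with 2586 bins (26.1%) at an unadjusted p under 0.05 and a smallest adjusted p of 0.18, and DESeq2 called 660. At 100 kb 0 of 1004 were called by edgeR (0%), with 382 (38%) at an unadjusted p under 0.05 and a smallest adjusted p of 0.0773, and DESeq2 called 231. The bins with the smallest p did not pass. On the positive side, where the difference is greater with mrg-1 RNAi than with control RNAi, these were at 10 kb the bins of duo-3 (2.05 ± 0.50), of cpt-6, a carnitine palmitoyltransferase family gene (1.65 ± 0.42), and a bin at X 12570001 to 12580000 (2.63 ± 0.68). On the negative side they were the bins of npp-8, a nuclear pore gene (-2.53 ± 0.57), ech-7, an enoyl-CoA hydratase gene (-1.97 ± 0.48), and denn-4 (-1.94 ± 0.48). At 100 kb they were the bins of lev-9 (1.46 ± 0.39), gtl-1, a TRP channel gene (1.68 ± 0.45), and sex-1, a nuclear receptor gene (1.28 ± 0.35), and on the negative side rict-1, the Rictor gene (-1.09 ± 0.27), lev-10 (-0.97 ± 0.25) and nep-21 (-1.2 ± 0.31). lev-9 and lev-10 act together in clustering acetylcholine receptors in muscle. Without cec-4 control RNAi libraries 1 and 3, the pair 2 library is the only cec-4 library with control RNAi left, and the genotype fit over both RNAi conditions again called 0 bins at 10 kb, with 1257 at an unadjusted p under 0.05.

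GFP::Dam showed no arm-to-centre shift between genotypes beyond the spread of its libraries. The contrast is the mean log2(CPM + 1) of 10 kb bins in the outer parts of the autosomes minus that in the centres, with each chromosome divided into 3 equal lengths. In cec-4 it was 0.52, -0.32 and 0.29 with control RNAi (libraries 1 to 3) and -0.02, -0.39 and -0.26 with mrg-1 RNAi. In wild type it was -0.32, -0.23 and -0.51 with control RNAi and -0.22 and -0.17 with mrg-1 RNAi (libraries 2 and 3). The 2 high values are cec-4 control RNAi libraries 1 and 3, and the other 4 cec-4 libraries lie within or next to the range of wild type. The genotype difference was 0.24 ± 0.19 (exact two-sided permutation of genotypes within RNAi condition, p = 0.36, adjusted p = 0.51 over 3 such contrasts, n = 6 and 5, smallest possible p = 0.005), and 2 of 5 pairs were positive. By pair it was 0.84, -0.08 and 0.80 with control RNAi and -0.18 and -0.09 with mrg-1 RNAi. With both of the high libraries left out, a choice made after seeing the data, the difference was -0.03 (exact permutation p = 0.825). The interaction with RNAi was -0.65 ± 0.29 (exact permutation p = 0.105).

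On the X chromosome the arm-to-centre difference was 0.10 ± 0.08 (exact permutation p = 0.365, adjusted p = 0.51), from 0.09 ± 0.17 in cec-4 (SD, n = 6) and -0.01 ± 0.05 in wild type (SD, n = 5). The log2 ratio of X to autosome reads was -2.39 ± 0.22 in cec-4 (SD, n = 6) and -2.32 ± 0.13 in wild type (SD, n = 5), a fitted difference of -0.06 ± 0.09 (exact permutation p = 0.51, adjusted p = 0.51).

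Dam::EMR-1, measured in the sister strains of the same rounds, was set beside GFP::Dam in the same contrast. Its arm-to-centre contrast on the autosomes was 1.45 ± 0.43 in cec-4 (SD, n = 6) and 2.36 ± 0.25 in wild type (SD, n = 5), a difference of -0.91 ± 0.13 (exact permutation p = 0.04), negative in 5 of 5 pairs. The call was lost in 7 of the 11 fits that left out a library (exact permutation p of 0.02 to 0.0833 over all 11). The Dam::EMR-1 difference minus that of GFP::Dam, taken library by library, was -1.16 ± 0.15 (exact permutation p = 0.035), also negative in 5 of 5 pairs. On the X chromosome it was -0.58 ± 0.09 (exact permutation p = 0.025). The same difference for the log2 ratio of X to autosome reads was 0.49 ± 0.10 (exact permutation p = 0.06). Unlike those of GFP::Dam, the p-values in this paragraph were not adjusted over contrasts. The autosome difference between the fusions lost its call in 9 of the 11 fits that left out a library. Over all 11 it ran from -1.22 to -1.03 (exact permutation p of 0.03 to 0.0833). These permutations do not keep libraries of 1 number together. Swaps within the 5 pairs can reach no p below 0.0625, so none of these contrasts could pass under them.

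**Figure D3:**
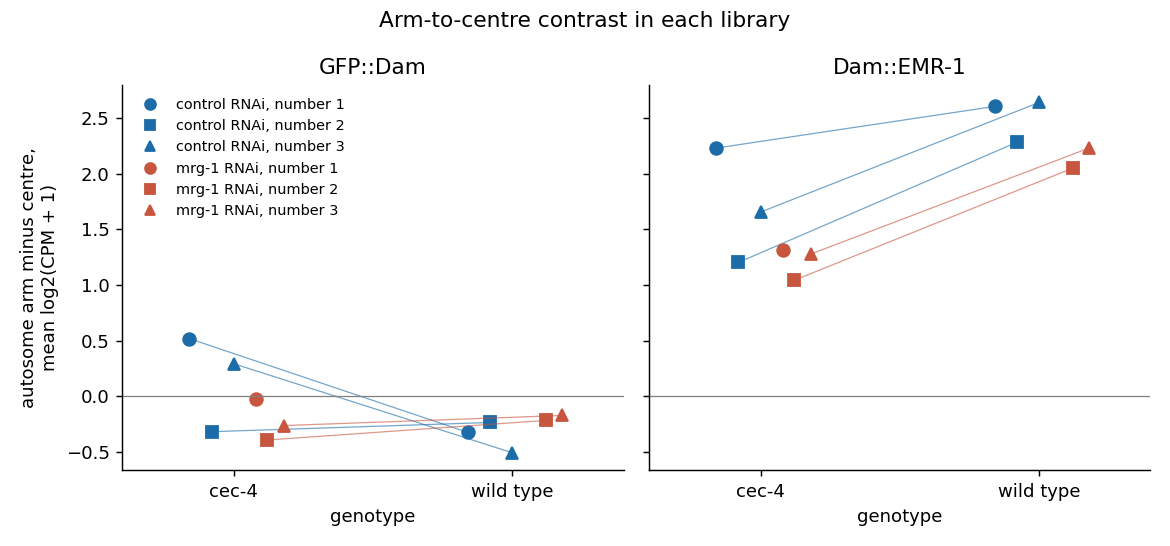
Autosome arm minus centre, in mean log2(CPM + 1) of 10 kb bins, for each library of GFP::Dam (left) and Dam::EMR-1 (right), cec-4 beside wild type, with lines joining libraries of the same number and RNAi condition. GFP::Dam lines run in both directions, and the 5 Dam::EMR-1 lines all lie lower in cec-4.

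Chromosome by chromosome, the GFP::Dam difference was tested in 18 parts (left arm, centre and right arm of 6 chromosomes) with limma, and 0 of 18 were called (0%). Differences in mean log2(CPM + 1) ran from -0.36 to 0.005, with SEs of 0.109 to 0.258, and the smallest limma adjusted p was 0.987. These CPM count all nuclear reads, the ribosomal RNA bin included, and relative to the mean of all parts the differences ran from -0.23 in the V centre to 0.13 in the I left arm, again with 0 of 18 called. The differences of all 6 centres were more negative than those of both arms of their chromosome, none past the threshold. They were -0.36 ± 0.26 on V, -0.32 ± 0.23 on IV, -0.27 ± 0.24 on II, -0.26 ± 0.24 on I, -0.20 ± 0.20 on X and -0.19 ± 0.21 on III. The V centre was lower in cec-4 in control RNAi pairs 1 (3.653 against 4.915) and 3 (4.018 against 5.404). It was higher in cec-4 in control RNAi pair 2 (5.807 against 5.723) and mrg-1 RNAi pairs 2 (5.861 against 5.652) and 3 (5.062 against 4.725). The other centres split the pairs the same way. The SD over cec-4 libraries in the chromosome V centre was 0.91 against 0.445 over wild-type libraries. The left arm of chromosome I and the right arm of II stood nearest to 0, at 0.005 ± 0.11 and -0.002 ± 0.11. In Dam::EMR-1 the same fit called 7 of 18 parts, with centres higher in cec-4 by 0.34 to 0.89 on the 6 chromosomes, of which the one on IV was not called.

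**Figure D4:**
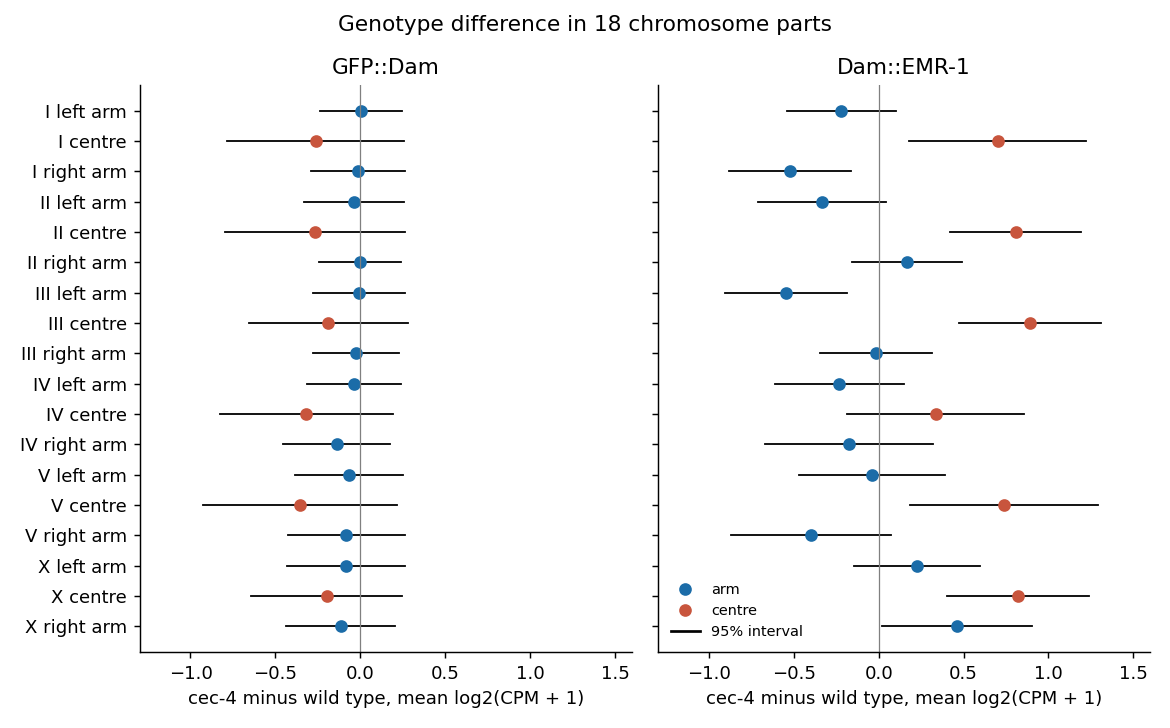
Genotype difference (cec-4 minus wild type, mean log2(CPM + 1)) in 18 chromosome parts for GFP::Dam (left) and Dam::EMR-1 (right), with 95% intervals from limma. Every GFP::Dam interval spans 0, and 7 parts are called in Dam::EMR-1.

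At 1 kb, 2 of 65857 tested bins were called (0.00304%), 1 higher and 1 lower in cec-4 (edgeR quasi-likelihood). Of all tested bins, 2854 had an unadjusted p under 0.05, 223 higher and 2631 lower. The higher one lies on chromosome III (11470001 to 11471000) on the right arm and covers 808 bases at the end of bed-2, a gene for a BED-type zinc finger protein. It had 152, 123 and 509 reads in cec-4 control RNAi libraries and 139, 113 and 342 in cec-4 mrg-1 RNAi libraries, against 0, 2 and 1 in wild-type control RNAi libraries and 3 and 1 in wild-type mrg-1 RNAi libraries. The groups did not overlap, with 1378 reads in cec-4 in all and 7 in wild type. The log2 difference was 6.73 ± 0.63 (edgeR adjusted p = 0.0177), higher in 5 of 5 pairs. The next bin to the right had 42 reads in cec-4 and 0 in wild type and was not tested, while the bin to the left stood at 0.74 ± 0.60 and those 2 and 3 kb to either side at -0.27 to 0.30, none past the threshold.

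The same window went the other way in Dam::EMR-1. There it had 4 reads in all in cec-4, in 1 of 6 libraries, against 91, 124 and 40 reads in wild-type control RNAi libraries and 127 and 37 in wild-type mrg-1 RNAi libraries. The log2 difference was -7.89 ± 1.11, lower in 5 of 5 pairs, and did not pass over all 1 kb bins (edgeR adjusted p = 0.758, with 0 of 53704 called and an unadjusted p of 1.81e-05). Over the 4 strains, reads were thus abundant in the GFP::Dam cec-4 strain and the Dam::EMR-1 wild-type strain, and at or near 0 in the GFP::Dam wild-type strain and the Dam::EMR-1 cec-4 strain. Genotype alone does not sort the 4 strains this way. The cause was not tested.

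The lower window lies on chromosome IV (12048001 to 12049000), in T12G3.4, a protein-coding gene with no standard symbol (12048256 to 12049928), 850 bases before bre-5, a glycosyltransferase gene known for resistance to Bt toxin. It had 4, 5 and 2 reads in cec-4 control RNAi libraries and 13, 10 and 3 in cec-4 mrg-1 RNAi libraries, against 79, 93 and 57 with control RNAi and 87 and 41 with mrg-1 RNAi in wild type. The groups did not overlap, and the log2 difference was -4.28 ± 0.39 (edgeR adjusted p = 0.0177), lower in 5 of 5 pairs. The next bin to the right, which also covers T12G3.4 and the start of bre-5, had 342 reads in cec-4 and 725 in wild type, at -1.92 ± 0.66 (edgeR adjusted p = 1), and the bin to the left had 0 reads in every library. Dam::EMR-1 had 0 reads in cec-4 and 27 in wild type in the called window, 20 of them in 1 library, and it was not tested there.

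**Figure D5:**
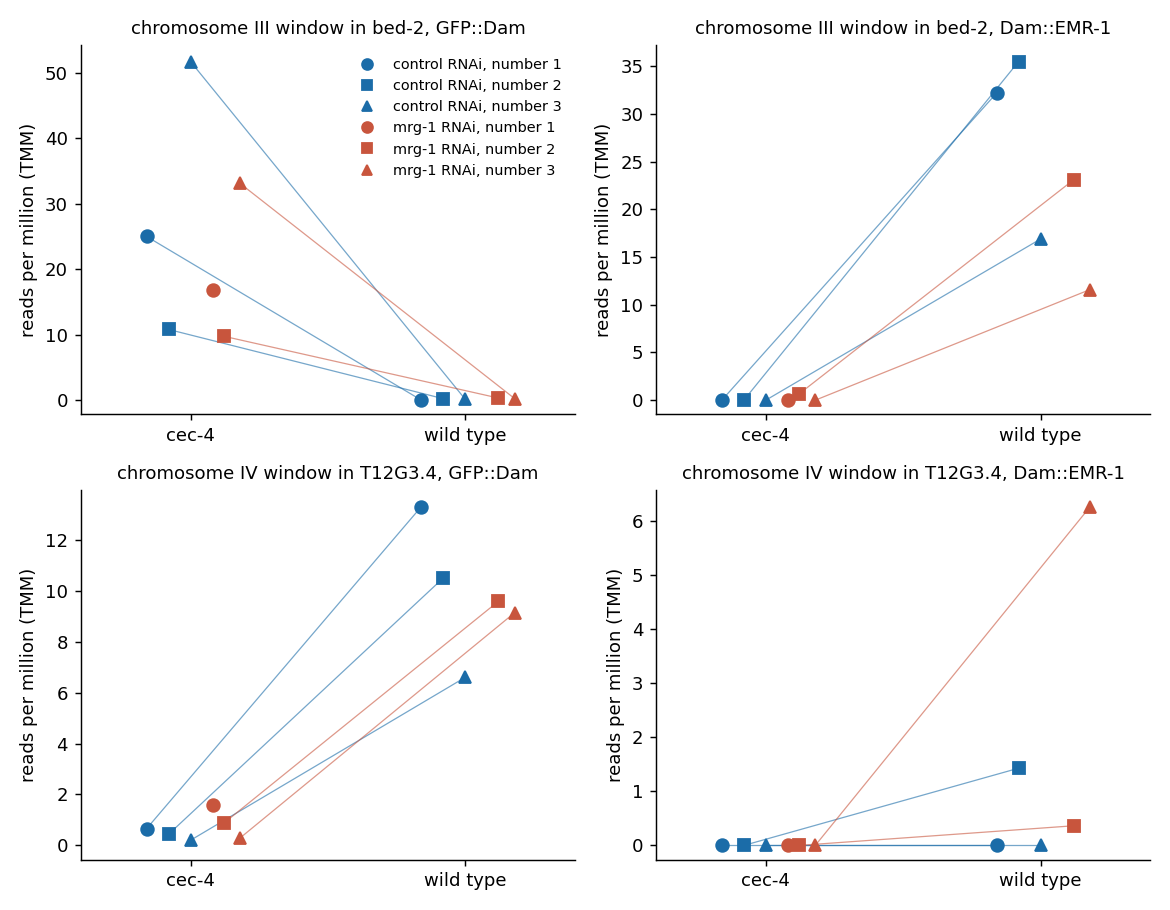
CPM with TMM scaling in each library for the 2 called 1 kb windows, on chromosome III in bed-2 (top) and on chromosome IV in T12G3.4 (bottom), in GFP::Dam (left) and Dam::EMR-1 (right), cec-4 beside wild type, with lines joining libraries of the same number and RNAi condition. In the bed-2 window GFP::Dam reads stand at 9.77 to 51.7 in cec-4 and at 0 to 0.33 in wild type, and Dam::EMR-1 reads at 0 to 0.632 in cec-4 and at 11.6 to 35.5 in wild type.

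Both calls depended on the scaling and on single libraries, while both values kept their sign. With library-size scaling neither passed (edgeR adjusted p = 0.0677 for bed-2 and 0.0707 for T12G3.4), and each kept its call in 2 of the 11 fits that left out a library, those without cec-4 control RNAi library 1 or wild-type mrg-1 RNAi library 2. Over these 11 fits the log2 difference was 6.34 to 7.47 for bed-2 and -4.46 to -4.16 for T12G3.4. DESeq2 called both (adjusted p = 1.91e-16 for bed-2 and 1.11e-17 for T12G3.4) and 4 others. These were a bin at X 16906001 to 16907000 (631 reads in cec-4 and 129 in wild type), one in pgp-6, a P-glycoprotein gene (DESeq2 log2 difference 5.47, with 1 read in wild type), one in nhr-153, a nuclear hormone receptor gene (9 and 63 reads), and one at X 3425001 to 3426000 with 0 reads in cec-4 and 7 in wild type.

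No 10 kb or 100 kb bin was called, so those with the smallest p in each direction are given as values that did not pass. At 10 kb the lowest p belonged to a bin on chromosome V (18710001 to 18720000) that overlaps no gene with a standard symbol. It had 12.2, 13.7 and 4.38 CPM in cec-4 control RNAi libraries and 21.2, 13.1 and 8.93 in cec-4 mrg-1 RNAi libraries, against 37.6, 26.8 and 23.6 in wild-type control RNAi libraries and 29.5 and 26.6 in wild-type mrg-1 RNAi libraries. Its log2 difference was -1.48 ± 0.25 (edgeR adjusted p = 0.998, unadjusted p = 0.000181), with 0% of bins called. The bin of mau-2, which encodes a subunit of the cohesin loader (chromosome I, 8120001 to 8130000), had 11.1 to 23.8 CPM in cec-4 (median 18.7) and 20 to 37.5 in wild type (median 30.4), at -0.82 ± 0.18 (edgeR adjusted p = 0.998). These 2 are the bins that DESeq2 called, at adjusted p of 4.57e-05 for the bin on V and 0.00758 for mau-2. The bin of nccd-1 (chromosome IV, 16980001 to 16990000) had 6 reads in cec-4 and 35 in wild type, at -2.83 ± 0.61. On the higher side, a bin on chromosome IV (4080001 to 4090000) with no standard gene symbol stood at 0.66 ± 0.19. The bin of ufd-1, a partner of the CDC-48 segregase (IV, 12320001 to 12330000), had a median of 34.5 CPM in cec-4 and 23.6 in wild type, at 0.72 ± 0.22. The bin of xtr-2 (X, 12310001 to 12320000) had medians of 48 CPM in cec-4 and 27 in wild type, at 0.60 ± 0.19. Each of these 6 lay on the same side in 5 of 5 pairs. They were chosen for the smallest p in the same libraries, which favours bins of 1 sign. The share of all bins with 1 sign in every pair was not counted, and the 5 pairs come from 3 rounds of culture. The shared sign is therefore no separate support.

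At 100 kb the higher bins with the smallest p were those of sms-3, a sphingomyelin synthase gene (III, 1500001 to 1600000, 0.41 ± 0.16), scc-2, the other subunit of the cohesin loader (II, 200001 to 300000, 0.21 ± 0.09), and tftc-1, a TFIIIC subunit gene (IV, 2300001 to 2400000, 0.25 ± 0.11). The lower ones were those of atic-1, a purine synthesis gene (IV, 7800001 to 7900000, -0.34 ± 0.12), unc-42, a neuronal homeobox gene (V, 9700001 to 9800000, -0.42 ± 0.16), and egl-10, which encodes a regulator of G protein signalling (V, 12400001 to 12500000, -0.19 ± 0.08). All had an edgeR adjusted p of 0.996. The 3 higher bins lie on left arms and the 3 lower ones in centres. They were chosen for the smallest p in the same libraries, and signs by part were not counted over all 100 kb bins. Their sorting by part is therefore no separate support. The unc-42 bin was lower in cec-4 in 4 of 5 pairs and higher in 1. In Dam::EMR-1 the bins of atic-1, unc-42 and egl-10 had 182 to 272, 489 to 777 and 155 to 311 CPM in cec-4, against 80.7 to 161, 261 to 511 and 57.5 to 100 in wild type, while their fitted GFP::Dam differences were negative. Centres in general were higher in cec-4 in Dam::EMR-1, by 0.34 to 0.89. Of the higher bins, that of sms-3 had 39.8 to 79.1 CPM in Dam::EMR-1 of cec-4 against 190 to 390 in wild type. The groups overlapped for scc-2 (1970 to 2860 against 1950 to 2450) and tftc-1 (166 to 397 against 303 to 763). The difference between the fusions was not tested for single bins.

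Over both RNAi conditions, none of the 5 genes that the strains and RNAi involve had a GFP::Dam difference past the threshold in edgeR. With mrg-1 RNAi alone the elt-2 bin did, at -0.54 (edgeR adjusted p = 0.0433). The 10 kb bin of mrg-1 (chromosome III, 12870001 to 12880000) had 174, 66.9 and 154 CPM in cec-4 control RNAi libraries and 77.2, 51.5 and 56.9 in cec-4 mrg-1 RNAi libraries, against 71, 72.6 and 79.4 and, with mrg-1 RNAi, 68.6 and 86.4 in wild type. The 2 high values are again cec-4 control RNAi libraries 1 and 3, and the difference was 0.21 ± 0.29. The bin of elt-2, a GATA factor gene of the intestine (X, 10480001 to 10490000), had 65.6 to 368 CPM in cec-4 (median 115) and 66.1 to 257 in wild type (median 77.9), at 0.07 ± 0.27. The bin of emr-1 stood at 0.33 ± 0.22, that of cec-4 at -0.06 ± 0.18 and that of hsp-16.41, whose promoter drives the fusion, at -0.005 ± 0.27 (edgeR adjusted p = 0.998 for all 5). The sign of the mrg-1, elt-2, cec-4 and hsp-16.41 values turned without cec-4 control RNAi libraries 1 and 3, at -0.25, -0.38, 0.12 and 0.33, so no direction is given for them. The emr-1 bin was higher in cec-4 in 3 of 5 pairs and lower in 2. Its sign turned with mrg-1 RNAi alone and in the libraries of number 2 alone, so it is given no direction either.

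Gene families and cell type markers were followed through 19 lists, and 0 of their bins were called, as for all bins (0%). List medians ran from -0.09 to 0.10, beside a median of -0.01 over all 9927 bins and a typical SE of 0.255 for a single bin. Library-size scaling moved the median of all bins by -0.07 and turned the sign of 11 of the 19 list medians, so the lists gave no direction either. Chemoreceptor genes, which encode G protein-coupled receptors of sensory neurons, had the lowest median, at -0.09 over 828 bins, with 3 bins higher and 34 lower at an unadjusted p under 0.05, beside 55 higher and 237 lower among all bins. Their level relative to the median bin was -0.902 ± 0.22 log2 units in cec-4 (SD, n = 6) and -0.774 ± 0.13 in wild type (SD, n = 5). Ribosomal protein genes had a median of 0.07 over 62 bins, with a level of 1.79 ± 0.41 above the median bin in cec-4 and 1.68 ± 0.23 in wild type. Their most methylated bin, of rpl-27, stood at 0.15 ± 0.33. Intestinal genes had a median of 0.03 over 28 bins, and their 3 highest bins were those of asp-1, an aspartyl protease gene (-0.18 ± 0.33), ifc-2, an intermediate filament gene of the gut (0.02 ± 0.26), and act-5, the actin of the microvilli (0.09 ± 0.33). Genes of nuclear envelope and pore proteins had a median of -0.02 over 16 bins, with ran-1, the Ran GTPase gene, at 0.14 ± 0.32. Genes of histone H3 lysine 9 methylation, Polycomb and the MRG-1 pathway had a median of 0.03 over 19 bins, with lin-61, a reader of that mark, at 0.19 ± 0.22. Small heat-shock protein genes had a median of 0.10 over 7 bins, with hsp-16.11 at 0.21 ± 0.17, hsp-12.1 at -0.46 ± 0.27 and the bin shared by hsp-16.1, hsp-16.48 and hsp-16.49 at -1.1 ± 0.50, and histone genes one of 0.08 over 21 bins. The 5 bins of the genes the strains and RNAi involve, given above, had a median of 0.07. Markers of the tissues where the fusion is not expressed had medians of 0.06 (muscle, 14 bins), -0.07 (neurons, 15), -0.01 (hypodermis, 15), 0.03 (germline, 14) and 0.04 (pharynx, 7). The remaining lists, of proteasome, collagen, C-type lectin, F-box with MATH and BTB, nuclear hormone receptor and major sperm protein genes, had medians of -0.05 to 0.05.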

How the data were processed

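Dam methylation was measured by DamID-seq in intestines of L1 larvae. The authors deposited raw read counts per 1, 10 and 100 kb bin of build ce11, per the file headers and the submitters' processing notes; for the aligner and its settings: not given in the sources used here. PCR amplification of methylated GATC fragments, per the labels' protocols, means that reads are not independent molecules. Reads of the mitochondrial genome were left out of all fits.

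Bins were tested with edgeR 4.0.16 (R 4.3.3): filterByExpr, TMM scaling, quasi-likelihood test of genotype with replicate number and RNAi as blocks, Benjamini-Hochberg adjustment and a threshold of 0.05. SEs are the log2 difference divided by the square root of F. Chromosome parts were tested with limma 3.58.1. Arm and X contrasts used exact permutation of genotypes within RNAi condition (200 arrangements). DESeq2 1.42.0, library-size scaling, other filters and left-out libraries served as alternatives. The test scripts were tested on simulated data.

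The labels state that all strains of a replica were grown in parallel, which pairs the libraries of a number, and deviations of same-numbered libraries from their group means correlated at r of 0.431 to 0.825 (15 of 15 pairs over 0.1). One mrg-1 RNAi replica of wild type was eliminated by the submitters for technical reasons. Named bins are, per bin size and direction, those called with the largest difference and 1 sign in every pair (at most 12, 6 at 100 kb), or, where none was called, the 3 with the smallest p. Each bin was named after the coding gene of standard symbol that covers most of it in RefSeq's WBcel235 table, the assembly of ce11. The 5 genes the strains and RNAi involve were always named, as were the members of a list with the highest level. The comparison, the gene lists and the bins named were chosen with earlier results of these data known. Summed 1 kb counts exceed the 10 kb counts by 0.185% to 0.991% of reads in GFP::Dam libraries.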

Additional observations from a re-analysis of the deposited data

Results flagged for a closer look

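In cec-4 control RNAi library 1, 3.31% of 10 kb bins held no GFP::Dam read, against a next highest of 1.27% among the 6 cec-4 libraries, a gap that set this library apart within its group. It was the 1 group of 54 checked in this way in which a library stood apart (1.85%), where chance flags about 5% of groups.

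The genotype difference in the autosome arm-to-centre contrast was -1.155 in Dam::EMR-1 minus that in GFP::Dam, and on the X chromosome -0.5751. Both stand out because the 2 fusions, compared in the same rounds, differed in their genotype difference (exact permutation p = 0.035 and 0.025, n = 6 and 5 library pairs, negative in 5 of 5 pairs). Those p-values were not adjusted over contrasts, and swaps within the 5 pairs can reach no p below 0.0625. The log2 ratio of X to autosome reads, compared in the same way, did not pass, at 0.49 (exact permutation p = 0.06).

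The 1 kb window in bed-2 had a genotype log2 difference of -7.89 in Dam::EMR-1, and in every pair it ran opposite to GFP::Dam, where it was 6.73. The difference between the fusions was not tested in this window.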

How the results depend on the processing

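The 10 kb and 100 kb counts of 0 stayed at 0 under the scalings, filters and left-out libraries run with edgeR over both RNAi conditions. DESeq2 called 2 bins for genotype, 1 for RNAi and 660 for the interaction at 10 kb, 231 for the interaction at 100 kb, and 6 for genotype at 1 kb. The mrg-1 RNAi libraries alone gave 1658 bins at 10 kb and 213 at 100 kb, and the libraries of number 2 alone, chosen after seeing the data and with RNAi as a block, gave 3182, 417 and, at 1 kb, 13440. The number 2 libraries come from 1 round of culture. Those of the same strain correlated between RNAi conditions at r = 0.99 in cec-4 and 0.991 in wild type. That fit thus measures no spread between rounds, and its counts are no evidence of a genotype difference that holds over rounds. The 1 kb count was 0 with library-size scaling and 0 to 2 over left-out libraries. The cause was not tested.

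Without the replicate block the 1 kb count was 1 (bed-2), the hsp-16.41 difference turned to 0.004902, and the arm-to-centre difference was 0.2745 (exact permutation p = 0.215); no other call changed. In the mrg-1 RNAi libraries alone the arm-to-centre differences turned to -0.03117 on autosomes and -0.01634 on X, and the locus differences to 0.3015 (cec-4), -0.5083 (mrg-1), -0.01774 (emr-1), 0.4726 (hsp-16.41) and -0.5404 (elt-2). Without cec-4 control RNAi libraries 1 and 3, chosen after seeing the data, the contrasts turned to -0.02635, -0.01704 and, for X over autosomes, 0.05254, and the loci to 0.1233 (cec-4), -0.2513 (mrg-1), 0.3335 (hsp-16.41) and -0.3803 (elt-2). Number 2 alone gave 0.05271 (cec-4), -0.2296 (mrg-1), -0.1441 (emr-1), 0.4613 (hsp-16.41) and -0.02986 (elt-2), and all 22 libraries in 1 fit 0.03038 (hsp-16.41) and -0.02178 (elt-2). Over left-out libraries the values ran from -0.1858 to 0.05331 (cec-4), -0.1569 to 0.3061 (elt-2), -0.2022 to 0.2787 (hsp-16.41) and -0.04468 to 0.3692 (mrg-1), and the Dam::EMR-1 contrast from -1.005 to -0.8438 (exact permutation p of 0.02 to 0.0833) and the difference between fusions from -1.216 to -1.032 (p of 0.03 to 0.0833 by the same exact test).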
